A study of Bos indicus with 9 samples.

Results

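The trypsinogen gene PRSS2 and 8 other genes of serine proteases, their receptors and their inhibitors were followed in the corpus luteum, the progesterone-secreting gland that forms from an ovulated follicle. The 9 genes were PRSS2, PRSS23, PLAU, PLAUR, PLAT, SERPINE2, SERPINA5, HTRA1 and F2RL1. They were chosen by gene symbol with earlier results of the same arrays in view, and PRSS2 was picked from its measured difference between the groups. Of the 9, 8 have a probe set under their symbol in the array's probe table, 1 probe set each, out of 23925 tested probe sets. SERPINA5, which encodes the protein C inhibitor, has no probe set under that symbol there and was not analysed here.

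The tissue came from Nelore crossbred cows (Bos indicus) aged 2 to 5 years, with 1 array per cow and 3 cows per group. Every cow, the controls included, had its cycle synchronised by progesterone devices plus estradiol benzoate, was kept on pasture and was slaughtered on day 6 after ovulation. The labels name no further hormone for control cows. eCG (equine chorionic gonadotropin) was given at 400 IU on day 8 after the start of the protocol in the stimulated group, and at 2000 IU on day 4 in the superovulated group. It is a hormone of the pregnant mare that acts in cattle on the receptors of both pituitary gonadotropins. Dose and day of injection changed together, so the comparisons do not separate them. All values are log2 signals, so a difference of 1 is a doubling, provided that the deposited scale is base 2, which the sources used here do not state.

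Many serine proteases of the trypsin fold, trypsinogen among them, are made as inactive precursors and are switched on by cleavage. Trypsinogen is best known as a digestive precursor of the pancreas, and its active form can cut and activate F2RL1, the protease-activated receptor PAR2. PLAU and PLAT encode the urokinase and tissue types of plasminogen activator, which turn plasminogen into the fibrin-cutting protease plasmin. PLAUR encodes the surface receptor that holds urokinase, and SERPINE2 an inhibitor of thrombin and of plasminogen activators. In the ovary this system takes part in the breakdown of the follicle wall at ovulation and in the remodelling of matrix and vessels as the corpus luteum forms.

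The tissue label was checked on markers. The mean signal of 6 steroidogenic markers (STAR, CYP11A1, HSD3B1, LHCGR, SCARB1 and FDX1) lay between 12.85 and 13.23 in all 9 animals. Correlations between arrays over all tested probe sets were 0.986 to 0.994, and no array stood apart. Probe sets differ in how they bind, so a level was compared only with levels of the same gene.

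PRSS2 (Entrez gene 282603) was read by 1 probe set, and near-identical trypsinogen copies, where present, could share it. Its signal was 8.24, 8.55 and 7.76 in the 3 control animals. It was 2.51, 2.18 and 2.25 in the stimulated animals and 9.83, 8.94 and 8.57 in the superovulated animals. The 3 stimulated animals thus formed a low group, and the nearest animal of any other group lay 5.25 higher. The superovulated animals all lay above the controls, the closest pair being apart by 0.02. Group means were 8.18 ± 0.40 in control, 2.31 ± 0.17 in stimulated and 9.11 ± 0.65 in superovulated animals (SD, n = 3).

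The difference between stimulated and control animals in PRSS2 was -5.87 (SE 0.33), that between superovulated and stimulated animals 6.80 (SE 0.33), and that between superovulated and control animals 0.93 (SE 0.33). These values are a description without a test, because PRSS2 was picked for them. Leaving out 1 animal at a time kept the first between -6.08 and -5.68 and the second between 6.44 and 7.07. The third ran from 0.57 without superovulated replicate 1 to 1.21 without superovulated replicate 3. It depended most on superovulated replicate 1, the animal with the highest PRSS2 signal.

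The low PRSS2 signals lay near the dim end of the array. In the stimulated animals only 9.78% to 19.4% of tested probe sets had a lower signal. The share was 72.5% to 76.3% in control and 76.7% to 84.2% in superovulated animals. With signals under the 25th percentile of each array raised to that percentile, the differences were -5.48 against control and 6.42 against superovulated animals. The size of the fold thus moved with the lower end of the scale, and the order of the groups did not.

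**Figure D1:**
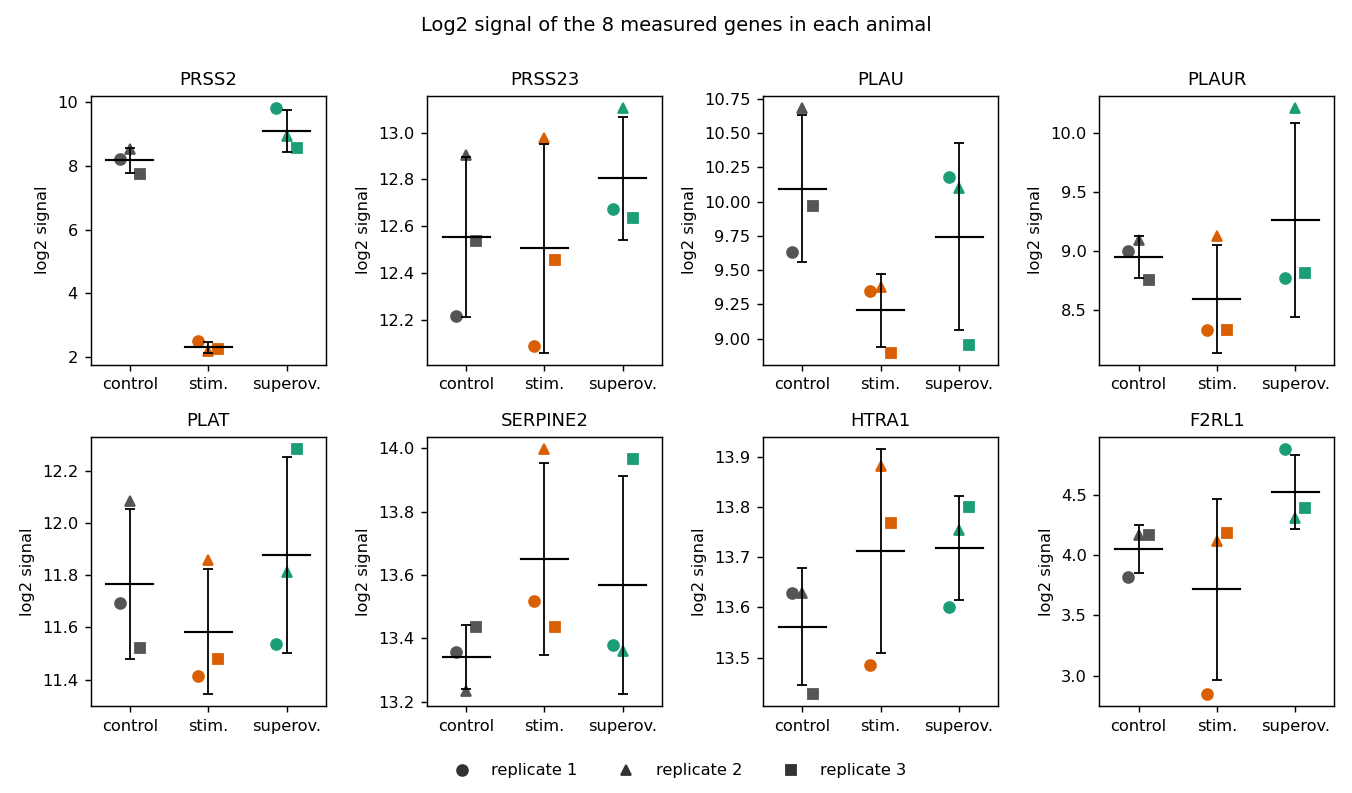
Log2 signal (vertical axes, which differ in range and do not start at 0) of the 8 measured genes in control, stimulated and superovulated corpora lutea. Each symbol is 1 animal, the symbol shape gives the replicate number, the line is the group mean and the bar is the SD (n = 3). PRSS2 stands at 2.18 to 2.51 in the stimulated animals and at 7.76 to 9.83 in the other animals, whereas the groups of PRSS23, PLAUR, PLAT and HTRA1 overlap in every comparison.

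In mammals trypsinogen genes lie within the locus of the T cell receptor beta chain. A RefSeq gene table, from the Bos indicus genome NIAB-ARS_B.indTharparkar_mat_pri_1.0, served for gene order only. There the nearest named coding genes of PRSS2 are TAS2R38, MGAM, EPHB6 and TRPV6, and 2 of its 16 nearest entries are V segments. F2RL1 lies beside F2R and F2RL2, which encode further protease-activated receptors.

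The defining genes of the pancreatic acinar cell, the usual source of trypsinogen, were mostly dim in all groups. Of 23 pancreatic acinar genes 13 have a probe set here, and 11 of these had a mean signal under the array median. The mean of the 13 per animal was 3.07 to 3.10 in control, 3.09 to 3.15 in stimulated and 3.04 to 3.07 in superovulated animals. None passed in any comparison, that is, none had an adjusted p under 0.05 (limma, Benjamini-Hochberg over all tested probe sets). At an unadjusted p under 0.05, 1 had a higher mean in the stimulated group than in controls, 0 differed between superovulated and control animals, and 1 was lower in superovulated than in stimulated animals. Over all tested probe sets that threshold was passed by 6.42%, 6.19% and 9.65% in the 3 comparisons. In each of the first and last the gene was PLA2G1B, a secreted phospholipase. Its mean was 4.61 ± 0.31 in control, 5.37 ± 0.53 in stimulated and 4.24 ± 0.42 in superovulated animals (SD, n = 3), with the direction opposite to that of PRSS2. The list's median difference of stimulated from control was 0.0012, beside -0.0031 over all 9120 genes tested. TMPRSS15, the enteropeptidase that activates trypsinogen in the gut, had 2.04 ± 0.08, 1.93 ± 0.13 and 2.01 ± 0.09 (SD, n = 3). Its signals lay near the dim end of the array, with 1.86% to 8.06% of tested probe sets lower. Which cells gave the PRSS2 signal was not tested.

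The probe sets whose profile over the 9 arrays came closest to that of PRSS2 were named by the root mean square difference of the centred profiles. A flat profile would differ from PRSS2 by 3.03. The profiles were not scaled, so a gene with the same pattern but smaller differences would lie farther from PRSS2. Closest was S100A9, a subunit of calprotectin, which is abundant in neutrophils, at 1.41. It was followed by LOC613358 at 1.94, S100A8, the other calprotectin subunit, at 1.99, a second probe set of S100A9 at 2.18 and PTGDS, a prostaglandin D2 synthase, at 2.21. S100A9 had 7.81, 9.27 and 10.17 in control, 6.30, 5.00 and 5.24 in stimulated, and 9.54, 10.32 and 9.44 in superovulated animals. Its stimulated animals did not overlap the other groups, but its controls spread over 2.36 log2 units, against 0.79 for PRSS2. S100A8 had 10.13, 10.99 and 11.53 in control, 9.63, 8.21 and 7.63 in stimulated, and 11.16, 11.13 and 10.53 in superovulated animals, again with the stimulated animals lowest. None of these 5 probe sets passed in any comparison, and for the first S100A9 probe set the adjusted p was 0.367 for stimulated against control and 0.174 for superovulated against stimulated (limma, Benjamini-Hochberg). PTGDS overlapped between stimulated and control animals.

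Cell type markers moved with PRSS2 in part. Of 6 neutrophil markers 4 have a probe set (S100A8, S100A9, S100A12 and MMP9). Their mean per animal was 7.06 to 8.41 in control, 5.35 to 6.17 in stimulated and 7.37 to 8.51 in superovulated animals. S100A8 and S100A9 were named above for their closeness to PRSS2 on these same arrays. This mean and the next counts are thus not separate observations. At an unadjusted p under 0.05 (limma), 3 of the 4 markers were lower in stimulated than in control animals. The other was S100A12, which overlapped between these groups. At the same threshold 1 was lower in superovulated than in control animals (MMP9). In superovulated against stimulated animals 3 were higher, MMP9 not among them. MMP9, a gelatinase, averaged 4.24 ± 0.43 in control, 2.82 ± 0.18 in stimulated and 3.19 ± 0.15 in superovulated animals (SD, n = 3), so that here the superovulated animals lay below the controls too. ELANE, the neutrophil elastase, had 2.38 ± 0.05, 2.55 ± 0.08 and 2.47 ± 0.005 (SD, n = 3), highest in the stimulated animals. Its signals lay near the dim end of the array, with 14.0% to 23.6% of tested probe sets lower. Of 7 macrophage markers 6 have a probe set, and their mean was 5.28 to 6.78, 7.03 to 8.49 and 6.70 to 8.22 in the 3 groups. At an unadjusted p under 0.05 (limma), 5 of the 6 were higher in stimulated and 3 in superovulated than in control animals. In superovulated against stimulated animals 1 was lower. That threshold was reached by 6.42%, 6.19% and 9.65% of all tested probe sets. No neutrophil or macrophage marker passed after adjustment in any comparison. The 6 T cell markers, all with a mean signal under the array median, had means of 2.79 to 2.96, 2.93 to 3.61 and 2.78 to 3.06. In bulk tissue, fewer cells of a type and less RNA per cell cannot be told apart, and the part of these cells in the PRSS2 signal was not tested.

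**Figure D2:**
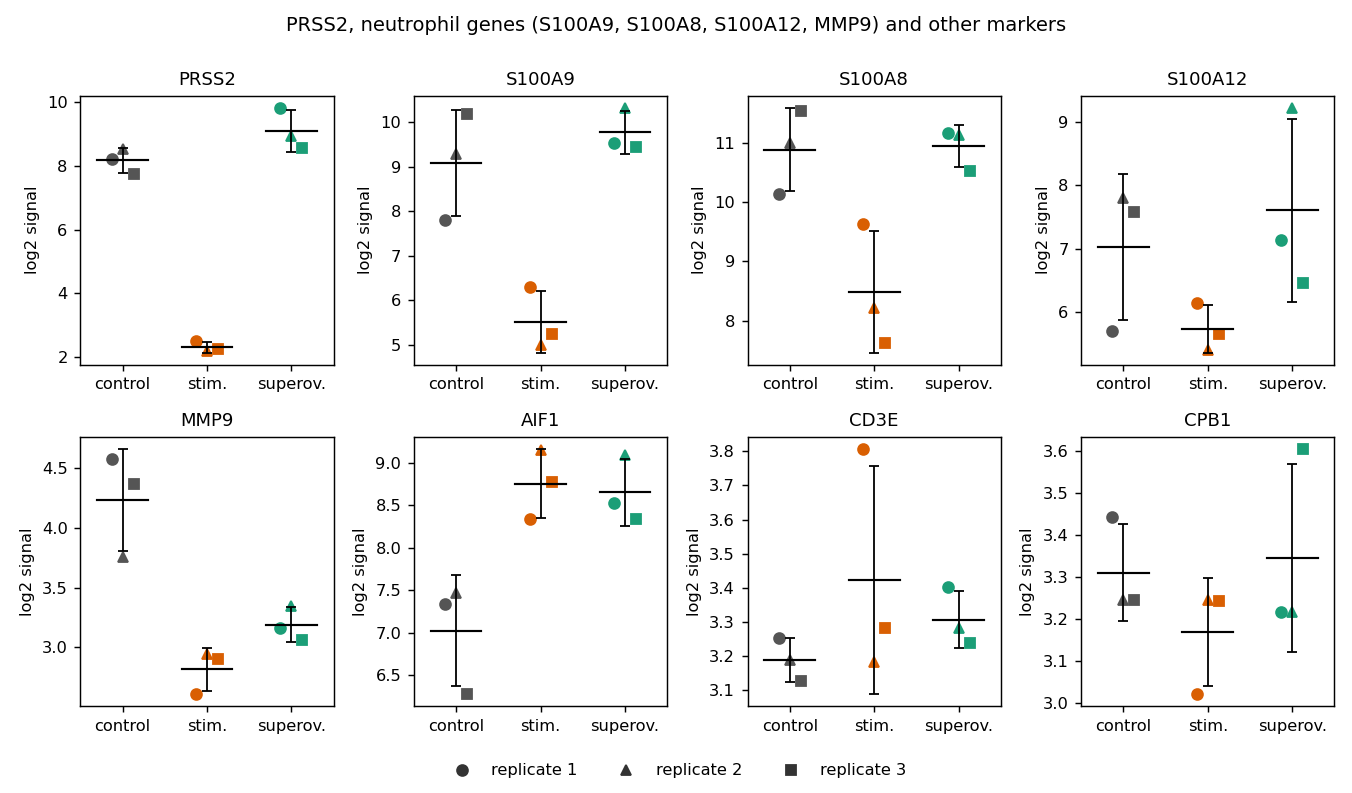
Log2 signal (vertical axes differ in range) of PRSS2, of 4 neutrophil markers (S100A9, S100A8, S100A12 and MMP9), of the macrophage marker AIF1, the T cell marker CD3E and the pancreatic gene CPB1 in each animal. Symbols are animals, lines are means and bars are SD (n = 3 per group). S100A9 and S100A8, like PRSS2, are lower in each stimulated animal than in all animals of the other groups. AIF1 is higher in stimulated animals than in control, and CPB1 keeps a mean of 3.17 to 3.35 in the 3 groups.

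For the other 7 genes the question was whether either dose of eCG came with a change in signal. None passed in any of the 3 comparisons, with adjusted p values of 0.778 to 0.987 for stimulated against control, 0.865 to 0.957 for superovulated against control and 0.518 to 0.989 for superovulated against stimulated (limma, Benjamini-Hochberg over 23925 probe sets). With PRSS2 included, 1 of 8 passed for stimulated against control and 1 of 8 for superovulated against stimulated, where 0.00418% of all tested probe sets passed. That gene was PRSS2 itself, so its choice sets these counts. For superovulated against control 0 of 8 passed, as did 0% of all. At an unadjusted p under 0.05 the 7 genes gave 1 for stimulated against control (6.42% of all tested probe sets), 0 for superovulated against control (6.19%) and 0 for superovulated against stimulated (9.65%). The labels give no pairing of animals across groups. In the last comparison animals of the same replicate number deviated together over all tested probe sets (correlations of 0.20, 0.38 and 0.16). With that number as a block, 2 of the 7 had an unadjusted p under 0.05, beside 11.5% of all tested probe sets. These were PRSS23 at 0.30 (SE 0.11, adjusted p = 0.395) and PLAUR at 0.67 (SE 0.24, adjusted p = 0.403, limma with Benjamini-Hochberg). Groups without overlap were found for 2 of the 7 in the first comparison (11.5% of all), for 1 in the second (10.9%) and for 1 in the third (13.5%). Counts of at most 2 genes in 7 do not set these genes apart from the background.

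Directions were uneven. For stimulated against control 5 of the 7 values were negative, with a median of -0.18 beside -0.004 over all tested probe sets. For superovulated against control 6 of 7 were positive, with a median of 0.23 beside 0.002. For superovulated against stimulated 6 of 7 were positive, with a median of 0.30 beside 0.005. The first pair of comparisons shares the control animals, and the last shares both treated groups with them, so these counts are not independent. The genes also share the animals. No share of signs over all tested probe sets was computed. The SEs of the single differences ran from 0.12 (HTRA1) to 0.40 (PLAUR), so no shift of the 7 genes is read from these medians.

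PRSS23 encodes a secreted protease of the trypsin family that is made in the ovary. Its signal was 12.22, 12.90 and 12.54 in control, 12.09, 12.98 and 12.45 in stimulated, and 12.67, 13.11 and 12.63 in superovulated animals. The groups overlapped in every comparison, and replicate 2 was the highest animal of each group. Stimulated animals differed from control by -0.05 (SE 0.26), with a 95% interval of -0.65 to 0.56. That sign turned without control replicate 2 (0.13) or stimulated replicate 1 (0.16). Superovulated animals differed from control by 0.25 (SE 0.26) and from stimulated by 0.30 (SE 0.26). The former was 0.084 without control replicate 1, 0.43 without control replicate 2 and 0.10 without superovulated replicate 2. The latter was 0.089 without stimulated replicate 1, 0.53 without stimulated replicate 2 and 0.15 without superovulated replicate 2.

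HTRA1, a secreted protease that cuts matrix proteins and proteins that bind growth factors, had the narrowest spread of the 8 genes. Its signal was 13.63, 13.63 and 13.43 in control, 13.49, 13.88 and 13.77 in stimulated, and 13.60, 13.75 and 13.80 in superovulated animals. The differences were 0.15 (SE 0.12) for stimulated against control, 0.16 (SE 0.12) for superovulated against control and 0.01 (SE 0.12) for superovulated against stimulated. Their 95% intervals lay between -0.26 and 0.43, so a signal difference of 1 log2 unit or more lies outside them. The signals lay near the bright end of the array, with 99.0% to 99.5% of tested probe sets lower. Whether a change in RNA shows in full at that brightness was not tested. The first was 0.065 when stimulated replicate 2 was dropped and 0.083 when control replicate 3 was, and 0.26 when stimulated replicate 1 was. The second was lowest without control replicate 3, at 0.090, and highest without superovulated replicate 1, at 0.22. The sign of the last turned without stimulated replicate 1 (-0.11), or without superovulated replicate 2 or 3 (-0.01 and -0.03).

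PLAU, urokinase, had the lowest unadjusted p of the 7 genes for stimulated against control (0.0482). Its signal was 9.63, 10.68 and 9.97 in control animals. It was 9.35, 9.37 and 8.90 in stimulated animals, all below the lowest control by at least 0.26. In superovulated animals it was 10.18, 10.10 and 8.96, so that superovulated replicate 3 stood with the stimulated animals and the others with the controls. Stimulated animals differed from control by -0.89 (SE 0.38, 95% interval -1.77 to -0.01, adjusted p = 0.778 in limma). The difference was -0.59 without control replicate 2, the highest animal, and -1.12 without control replicate 1. Superovulated animals differed from control by -0.35 (SE 0.38), which turned to 0.04 without superovulated replicate 3. They differed from stimulated animals by 0.54 (SE 0.38), and by 0.93 without superovulated replicate 3, 0.32 without superovulated replicate 1 and 0.36 without superovulated replicate 2.

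PLAUR, the receptor of urokinase, had 9.0, 9.09 and 8.75 in control, 8.34, 9.13 and 8.33 in stimulated, and 8.77, 10.21 and 8.81 in superovulated animals. Stimulated replicates 1 and 3 lay below all controls and replicate 2 above them. Superovulated replicate 2 lay above every other animal by more than 1 log2 unit. Stimulated animals differed from control by -0.35 (SE 0.40), superovulated animals from control by 0.32 (SE 0.40) and from stimulated by 0.67 (SE 0.40). Without superovulated replicate 2 the last pair of values was -0.16 and 0.19. Leaving out 1 animal moved the first value between -0.62 (without stimulated replicate 2) and -0.22 (without stimulated replicate 1 or 3).

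PLAT, tissue plasminogen activator, had 11.70, 12.08 and 11.52 in control, 11.41, 11.86 and 11.48 in stimulated, and 11.54, 11.81 and 12.28 in superovulated animals. All 3 groups overlapped. Stimulated animals differed from control by -0.18 (SE 0.23, 95% interval -0.70 to 0.34), or by -0.02 without control replicate 2 and -0.32 without stimulated replicate 2. Superovulated animals differed from control by 0.11 (SE 0.23) and from stimulated by 0.29 (SE 0.23). The first of these turned without control replicate 3 (-0.01) or superovulated replicate 3 (-0.09). The second was 0.092 without superovulated replicate 3 and 0.46 without superovulated replicate 1.

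SERPINE2, the inhibitor of thrombin and plasminogen activators also called protease nexin, had 13.36, 13.24 and 13.44 in control animals, a range of 0.20. It had 13.52, 14.00 and 13.44 in stimulated and 13.38, 13.36 and 13.97 in superovulated animals. The stimulated animals lay above the controls by a margin of 0.0004 and so barely without overlap. Stimulated animals differed from control by 0.31 (SE 0.20, 95% interval -0.16 to 0.77), and by 0.14 without stimulated replicate 2. Superovulated animals differed from control by 0.23 (SE 0.20), and by 0.03 without superovulated replicate 3. They differed from stimulated by -0.08 (SE 0.20), and that sign turned when stimulated replicate 2 or superovulated replicate 1 or 2 was left out, to values of 0.01 to 0.09.

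F2RL1, the trypsin-activated receptor, had signals around the array median, with 29.4% to 55.8% of tested probe sets lower. They were 3.82, 4.16 and 4.16 in control, 2.85, 4.12 and 4.18 in stimulated, and 4.88, 4.30 and 4.39 in superovulated animals. The superovulated animals lay above all others, by 0.14 over the highest control and by 0.12 over the highest stimulated animal. They differed from control by 0.48 (SE 0.35, 95% interval -0.33 to 1.29; 0.30 without superovulated replicate 1) and from stimulated by 0.81 (SE 0.35, 95% interval from just under 0 to 1.62, adjusted p = 0.518 in limma). Without stimulated replicate 1, the lowest animal, the latter was 0.38. Stimulated animals differed from control by -0.33 (SE 0.35), and by 0.10 without stimulated replicate 1. From high to low the group means of F2RL1 stood in the order superovulated, control, stimulated, as did those of PRSS2, PRSS23, PLAUR and PLAT.

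**Figure D3:**
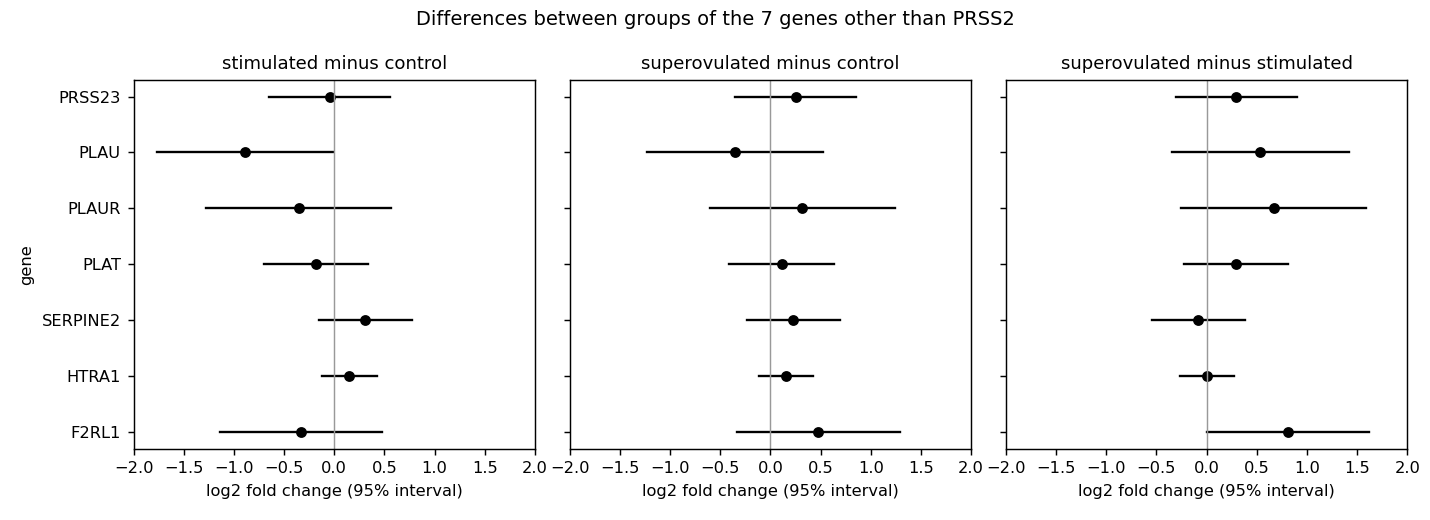
Log2 fold change between groups (horizontal axis) with its 95% interval from the limma fit for the 7 genes other than PRSS2, in 3 comparisons. Points are estimates from 3 animals per group and the grey line marks no difference. The interval of PLAU for stimulated against control ends at -0.01, and each of the other intervals includes 0, that of F2RL1 for superovulated against stimulated by less than 0.01.

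Among the 8 genes the group mean was highest in superovulated animals for 6, in control for PLAU and in stimulated for SERPINE2. It was lowest in stimulated animals for 6 and in control for SERPINE2 and HTRA1. PRSS2, picked for its differences, is in both counts of 6, and no share over all tested probe sets was computed for these orders. Some orders rest on differences smaller than their SE. HTRA1 had 0.007 (SE 0.12) for superovulated against stimulated, and PRSS23 had -0.05 (SE 0.26) for stimulated against control. Single animals recurred. Stimulated replicate 2 was the highest of its group for 6 genes and the lowest for PRSS2. Control replicate 2 was the highest of its group or level with it for 7, with HTRA1 level in control replicate 1 and F2RL1 level in control replicate 3 (within 0.0001). Superovulated replicate 2 was the highest of its group for PRSS23 and PLAUR. Among the marker lists, those of pericytes, macrophages and granulosa cells were highest in replicate 2 of each group. Over 6 pericyte and smooth muscle markers the means were 10.0004, 10.07 and 10.36 in replicate 2 of the control, stimulated and superovulated groups, and 9.25 to 10.06 in the other 6 animals. Over 6 macrophage markers replicate 2 was also the highest of each group, at 6.78, 8.49 and 8.22, and over the granulosa markers at 5.91, 6.16 and 5.81. The 6 steroidogenic markers went the other way, with replicate 2 the lowest of each group at 12.85, 12.93 and 12.93, against 12.98 to 13.23 in the other 6 animals. The T cell markers were lowest of their group in stimulated replicate 2, at 2.93. The part of cell makeup in the spread of these genes was not tested.

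The spread between animals of one group was wide for most of the genes. The pooled SD of PLAUR was 0.55 and that of PLAU 0.53, larger than in 93.8% and 93.0% of all tested probe sets. F2RL1 had 0.48, PRSS2 0.45, PRSS23 0.36, PLAT 0.31 and SERPINE2 0.27. HTRA1 had 0.15, equal to the median of 0.15 over all tested probe sets. The intervals above follow from this spread.

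The rest of the plasminogen system was read from a list of 20 genes, of which 14 have a probe set. None passed in any comparison. At an unadjusted p under 0.05, 0 of 14 differed between stimulated and control animals, 1 was higher in superovulated than in control animals and 2 were higher in superovulated than in stimulated animals. The shares over all tested probe sets were 6.42%, 6.19% and 9.65%. Groups without overlap were found for 1, 1 and 3 of the 14 in the 3 comparisons, beside 11.5%, 10.9% and 13.5% of all. The medians were -0.007, 0.06 and 0.16, beside -0.003, 0.01 and 0.01 over all genes. ST14, the membrane protease matriptase, averaged 3.28 ± 0.05 in control, 3.28 ± 0.05 in stimulated and 3.46 ± 0.08 in superovulated animals (SD, n = 3), and its superovulated animals lay above all others. ENO1, an enolase that also binds plasminogen at cell surfaces, differed by 0.20 (SE 0.08, adjusted p = 0.489 in limma) between superovulated and stimulated animals. TFPI2, an inhibitor of plasmin and trypsin, had 11.24 ± 0.58, 10.53 ± 0.56 and 11.54 ± 0.92 (SD, n = 3), with overlap in every comparison. ANXA2, a plasminogen-binding annexin, and F12, which encodes coagulation factor XII, had differences of -0.12 and 0.13 for stimulated against control. MST1, related to hepatocyte growth factor, had 0.73 for superovulated against control. The plasminogen gene itself, PLG, had a signal of 2.58 to 2.62 in the group means. F12 and PLG lay near the dim end of the array, with 17.5% to 25.3% and 20.0% to 24.9% of tested probe sets lower.

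Of 52 further trypsin-like and secreted serine proteases 18 have a probe set, and 16 of these had a mean signal under the array median. None passed in any comparison. At an unadjusted p under 0.05, 1 had a higher mean in the stimulated group than in controls (ELANE), 0 differed between superovulated and control animals and 1 was higher in superovulated than in stimulated animals (PRSS12). Over all tested probe sets the shares were 6.42%, 6.19% and 9.65%. Without overlap, 1 gene was higher and 1 lower in stimulated than in control animals, and 1 was higher in superovulated than in control animals. In superovulated against stimulated animals 2 were higher and 1 lower. Groups did not overlap for 11.5%, 10.9% and 13.5% of all tested probe sets. The medians were -0.03, 0.02 and 0.07, beside -0.003, 0.01 and 0.01 over all genes. PRSS12, the protease neurotrypsin, averaged 3.54 ± 0.18 in control, 3.42 ± 0.13 in stimulated and 3.83 ± 0.23 in superovulated animals (SD, n = 3). KLK10, a kallikrein, had -0.33 (SE 0.16) for stimulated against control, with no overlap, and 0.35 (SE 0.16) for superovulated against stimulated. HPN, the membrane protease hepsin, had -0.11 for stimulated against control, and CELA1, an elastase, 0.12 for superovulated against control. GZMB, a granzyme of killer cells, had -0.58 (SE 0.31) for superovulated against stimulated. PRSS35, a protease of ovarian follicles that is described here after its values were seen, had 6.66 ± 0.74, 6.84 ± 1.09 and 7.40 ± 0.38 (SD, n = 3) and overlapped in every comparison.

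Of 51 serpins and other inhibitors 24 have a probe set. None passed. At an unadjusted p under 0.05, 1 was higher and 1 lower in stimulated than in control animals, 2 were higher and 1 lower in superovulated than in control animals, and 2 were higher and 1 lower in superovulated than in stimulated animals. These counts are 2, 3 and 3 of 24, beside 6.42%, 6.19% and 9.65% of all tested probe sets. Without overlap, 1 was higher and 1 lower in stimulated than in control animals, and 2 were higher and 2 lower in superovulated ones. In superovulated against stimulated animals 2 were higher and 1 lower. Groups did not overlap for 11.5%, 10.9% and 13.5% of all tested probe sets. The medians were -0.03, 0.04 and 0.04, beside -0.003, 0.01 and 0.01 over all genes. SERPINB9, an inhibitor of granzyme B, averaged 2.95 ± 0.04 in control, 3.18 ± 0.05 in stimulated and 3.29 ± 0.14 in superovulated animals (SD, n = 3), and both treated groups lay above all controls. SERPINB1, which inhibits neutrophil proteases, had 9.48 ± 0.18, 9.62 ± 0.14 and 9.90 ± 0.08 (SD, n = 3), with the superovulated animals above all others. SPINT2, a Kunitz inhibitor of membrane proteases, differed by -0.48 between superovulated and stimulated animals, without overlap (SE 0.17, adjusted p = 0.470 in limma). SPINT1, its relative, had -0.19 for stimulated against control, SERPINH1, a collagen chaperone, -0.15, and SERPINA10, an inhibitor of factor X, -0.18 for superovulated against control.

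SERPINA11 and SERPINA14 varied widely among animals of the same group. SERPINA11 had 2.90, 6.59 and 7.56 in superovulated animals and 2.03 to 3.80 in the other 6, so that superovulated replicates 2 and 3 stood apart from superovulated replicate 1. SERPINA14, the uterine serpin, is described here after its values were seen. It had 3.18, 4.94 and 3.15 in control, 3.24, 9.48 and 7.47 in stimulated, and 3.08, 9.55 and 9.79 in superovulated animals. Values above 7 thus occurred in 2 of 3 animals of each treated group and in none of the controls, and replicate 1 of each treated group was at the level of controls. The difference for stimulated against control was 2.97 (SE 2.09) and for superovulated against control 3.71 (SE 2.09). The 6 markers of surface epithelium and oviduct had a mean of 4.26 in superovulated replicate 2 and of 3.10 to 3.39 in the other 8 animals. That mean was 3.39 in superovulated replicate 3, 3.25 in stimulated replicate 2 and 3.19 in stimulated replicate 3, where SERPINA14 was also high. The part of such cells in the SERPINA signals was not tested.

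Of 24 protease-activated receptors and coagulation genes 17 have a probe set. None passed. At an unadjusted p under 0.05, 3 were higher and 1 lower in stimulated than in control animals, 3 were higher in superovulated than in control animals and 1 was higher in superovulated than in stimulated animals. These counts are 4, 3 and 1 of 17, beside 6.42%, 6.19% and 9.65% of all tested probe sets, and the lists were chosen with results in view, so nothing is read from them. Without overlap, 3 were higher and 2 lower in stimulated than in control animals, and 3 were higher in superovulated than in control animals. In superovulated against stimulated animals 2 were higher and 1 lower. Groups did not overlap for 11.5%, 10.9% and 13.5% of all tested probe sets, and nothing is read from these counts either. The medians were -0.08, 0.05 and 0.10, beside -0.003, 0.01 and 0.01 over all genes. FGG, the gamma chain of fibrinogen, had 10.64, 10.97 and 8.96 in control, 12.09, 12.48 and 12.40 in stimulated, and 11.77, 10.02 and 11.14 in superovulated animals. Its stimulated animals lay above all 6 others, by a mean of 2.14 (SE 0.58, adjusted p = 0.596 in limma) over control. F13A1, the subunit of factor XIII that cross-links fibrin and is also made by macrophages, had 3.60 ± 0.60, 5.59 ± 0.85 and 5.17 ± 0.89 (SD, n = 3). THBD, the endothelial thrombin receptor thrombomodulin, had 6.03 ± 0.13, 7.05 ± 0.36 and 7.24 ± 0.75 (SD, n = 3). For F13A1 and THBD both treated groups lay above all controls, as the means of the 6 macrophage markers did in stimulated animals. F9, coagulation factor IX, had differences of -0.19 (SE 0.06) for stimulated against control and 0.24 (SE 0.06) for superovulated against stimulated, both without overlap. VWF, von Willebrand factor, had 0.21 (SE 0.07) for superovulated against control. The thrombin receptor F2R had 9.87 ± 0.40, 10.02 ± 0.52 and 9.93 ± 0.21 (SD, n = 3), and F2RL2 had 6.75 ± 0.22, 6.21 ± 1.92 and 7.03 ± 0.90 (SD, n = 3). The groups of both receptors overlapped in every comparison.

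**Figure D4:**
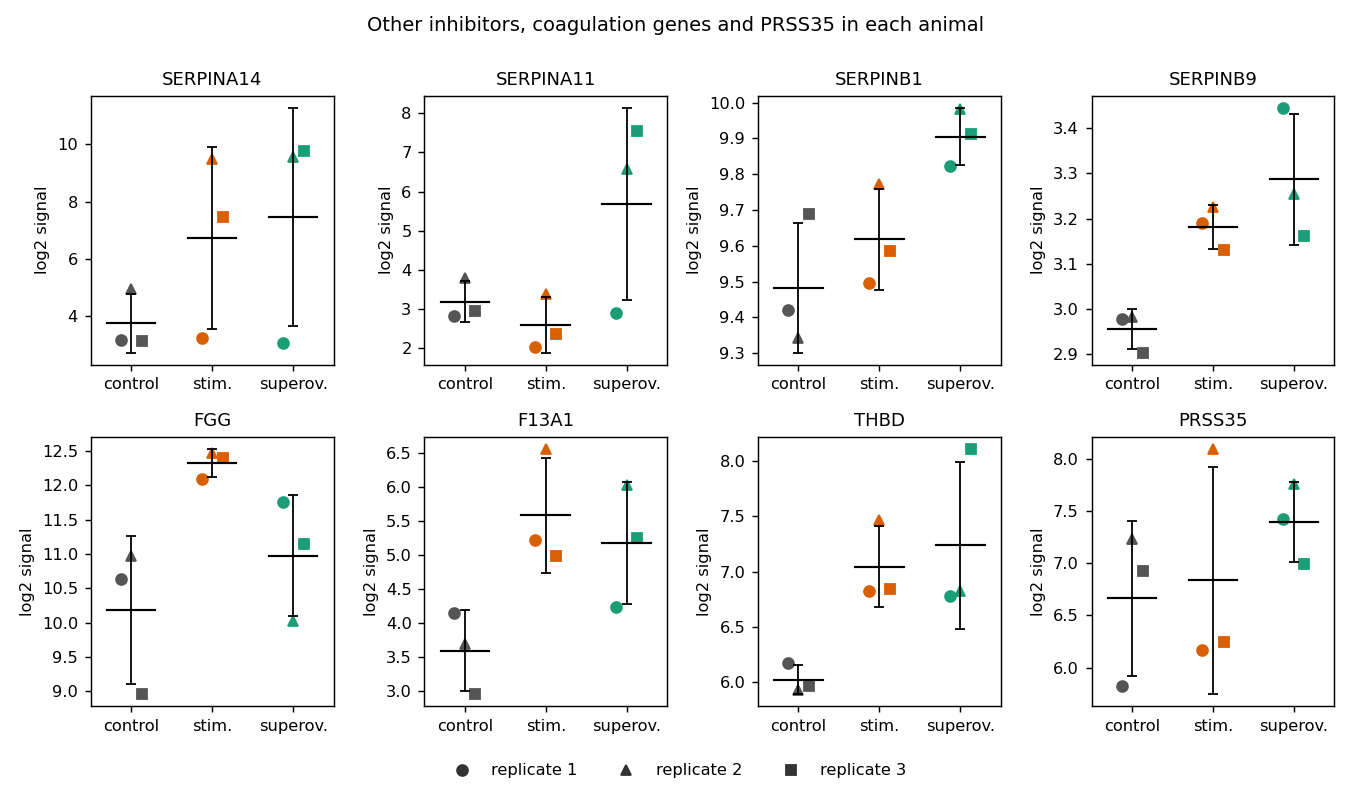
Log2 signal (vertical axes differ in range) of 4 serpins, of FGG, F13A1 and THBD, and of PRSS35 in each animal. Symbols are animals, lines are means and bars are SD (n = 3 per group). SERPINA14 is at 7.47 or more in 4 treated animals and at 3.08 to 4.94 in the others, and the stimulated animals of FGG lie above the others.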

How the data were processed

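From 5 ug of total RNA of each animal, biotin-marked cRNA was made for Affymetrix arrays, per the labels' protocols. The deposited values are runs of digits that have lost their decimal mark, while for the authors' summarisation and normalisation the sources used here give no method. The mark was restored from the values under a limit of 16. A run starting with 1 can be read as 1.x or 1x.x, which held for 15.5% of values. Other arrays of the probe set settled 1563 probe sets. Where all 9 runs were open, the spread between arrays decided at a posterior of 0.95, and 94 probe sets stayed undecided. PRSS23, PLAT, SERPINE2 and HTRA1 were read as 1x.x at posteriors of 99.7%, 99.9%, 99.8% and 99.9%. PLAU and PLAUR were settled by other arrays, and PRSS2 and F2RL1 had no such run. Values were read as log2 signals, from 0.85 to 15.4, with no further normalisation, and array medians were 4.18 to 4.24. Precision is limited by the number of arrays.

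All 9 arrays were fitted with limma 3.58.1 (R 4.3.3; lmFit, eBayes), with 1 mean per group, 2-sided, and Benjamini-Hochberg adjustment over 23925 probe sets; an adjusted p under 0.05 passes. The steps were checked on simulated data. Symbols came from the probe table (13292 probe sets with 1 symbol, 86 with several and 10638 with none). The probe set of highest mean stood for each gene of a list, and for a list each comparison's 3 genes of smallest p were named. The members and lists were chosen with earlier results of these data known. Superovulated and stimulated animals of the same replicate number deviated together (correlations of 0.20, 0.38 and 0.16), and a fit with the number as a block changed no call at an adjusted p under 0.05 in that comparison. For superovulated and control animals of the same number the correlations were 0.08, 0.35 and 0.15. The labels call the replicates biological and give no pairing across groups. Alternatives were quantile normalisation, filters and a floor on dim signals, probe sets with no open run, other variance settings and leaving out each array.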

Additional observations from a re-analysis of the deposited data

How the results depend on the processing

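None of the 7 genes other than PRSS2 passed under any alternative run for it; with probe sets that had no open digit run, only F2RL1 of them could be fitted. PRSS2 was picked on the same values, so its own passing supports nothing. Over all probe sets the counts of 1, 0 and 1 moved. Stimulated against control gave 2 with a floor on dim signals and 3 with the replicate number as a block. Between these groups, animals of the same number had correlations of 0.15, 0.28 and -0.04. Superovulated against control gave 1 when fitted on its groups alone. Superovulated against stimulated gave 3 with the floor, and 2 with quantile normalisation or with probe sets that had no open digit run. Leaving out 1 array gave 1 to 2, 0 to 1 and 1 to 3. The cause was not tested. Signs of differences of the 7 genes turned only when 1 array was left out. The ranges were -0.28 to 0.16 for PRSS23 and -0.56 to 0.10 for F2RL1 in stimulated against control. For superovulated against control they were -0.58 to 0.044 for PLAU, -0.16 to 0.56 for PLAUR and -0.091 to 0.28 for PLAT. For superovulated against stimulated they were -0.28 to 0.090 for SERPINE2 and -0.11 to 0.091 for HTRA1. With 3 animals per group the limit is precision, and for PRSS2 in stimulated animals it is the dim end of the array.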
